A study of Mus musculus with 2 samples.

Results

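Genes for ATP-dependent chromatin remodellers were examined in mouse embryonic stem (ES) cells of genotype Fbxl10 T/T and in wild-type (WT) ES cells. The list holds 52 genes, chosen by name for the subunits and enzymes of the BAF, NuRD, CHD, ISWI and INO80-related complexes and 3 further remodelling ATPases, of which 51 were among the 13620 genes of the deposited table and 51 reached 1 normalised CPM (gene reads scaled to a library size set by the authors) in at least 1 library. Dpf3 was not listed and is not analysed here. Polyadenylated RNA was sequenced from 1 library of Fbxl10 T/T cells, homozygous for the T allele of Fbxl10, and from 1 library of WT cells, both of the C57BL/6J strain. Both cultures were grown with serum and leukemia inhibitory factor on inactivated mouse embryonic fibroblasts, and the feeder cells were depleted before use. The labels do not say what the T allele changes, nor whether a genotype is 1 clone or several. With 1 library per genotype there were no replicates and no test of the genotypes, so "higher" and "lower" describe these libraries, and every interval is a 95% interval of counting error only.

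Chromatin remodellers use ATP to slide, evict or exchange nucleosomes. The BAF complexes open chromatin at enhancers and promoters, NuRD couples remodelling to histone deacetylation, ISWI complexes space nucleosomes, and the INO80-related complexes act on histone variants. In ES cells the BAF complex is known for a particular choice among paralogues: it is built around SMARCA4, SMARCC1, SMARCD1 and ARID1A, and uses little SMARCA2, SMARCC2 or SMARCD3, which are used more as cells differentiate. Fbxl10 is an older symbol of Kdm2b, whose protein binds unmethylated CpG islands and belongs to a variant Polycomb complex. The series concerns genes bound by Polycomb, and this comparison shows how remodeller RNA differed between Fbxl10 T/T and WT cells.

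The libraries held 27109446 recovered reads in Fbxl10 T/T and 21198574 in WT. The targeted gene, Kdm2b, was at 10.6 CPM in Fbxl10 T/T and 102.5 CPM in WT. The cells also differed in their markers. Of 6 ES cell markers 5 were at least 2-fold lower in Fbxl10 T/T, and their summed level was 481 CPM there and 4634 CPM in WT. All 9 primitive and extraembryonic endoderm markers were at least 2-fold higher, with a summed level of 32896 CPM in Fbxl10 T/T and 3172 CPM in WT. Of 10 fibroblast markers 8 were listed, none was at 0 in either library, none differed 2-fold, and they summed to 354 and 402 CPM, and RNA of feeder cells in the libraries was not measured apart from these. The part of these marker differences in the values below was not tested, and in bulk RNA fewer cells of a type and less RNA per cell cannot be told apart.

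Most remodeller genes were within 2-fold of WT. Ratios were taken after adding 0.5 CPM to both values, which shrinks those of scarce genes. By this measure 3 of 51 were at least 2-fold higher in Fbxl10 T/T (5.88%, beside 14.8% of all 13512 genes at 1 CPM or more). The same number, 3 of 51, were at least 2-fold lower (5.88%, beside 20.6%), and 45 lay in between, so 11.8% of the members and 35.3% of all genes passed 2-fold in either direction. The higher genes were Smarca2, Smarcd3 and Chd1, and the lower ones were Mta3, Chd9 and Chd3. The members were abundant, with a median at the 69.1th percentile of all listed genes in Fbxl10 T/T and the 71.7th in WT. Among genes with a mean of at least 20 CPM, a limit chosen after the values were seen, 3 of 45 members and 26.6% of all genes passed 2-fold. At 1.5-fold 9 members were higher (26.5% of all genes) and 16 lower (28.7%), together 49.0% of members and 55.2% of all genes. At 4-fold none was higher (3.84% of all genes) and 1, Mta3, was lower (9.1%).

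The members' median log2 ratio was -0.20, beside 0.02 over all genes, and 33 of 51 had a ratio below 0, as did 49.1% of all genes. Scaling bears on these counts. Giving both libraries a common median lowers the Fbxl10 T/T values by 0.13 on the log2 scale, and a common upper quartile lowers them by 0.24. The split of 3 higher and 3 lower members then became 2 and 9 with a common median (12.3% and 22.4% of all genes) and 2 and 12 with a common upper quartile (10.7% and 24.1%). The members that entered the lower group with a common median were Smarcb1, Ss18, Hdac1, Baz2a, Ruvbl2 and Atrx, all of which were 1.88- to 1.99-fold lower as deposited. Chd1 left the higher group under both scalings. The median of all genes turned to -0.11 and -0.21, and that of the members became -0.34 and -0.44. The members with a ratio below 0 then numbered 38 and 41, and the share of all genes below 0 was not computed under these scalings.

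**Figure D1:**
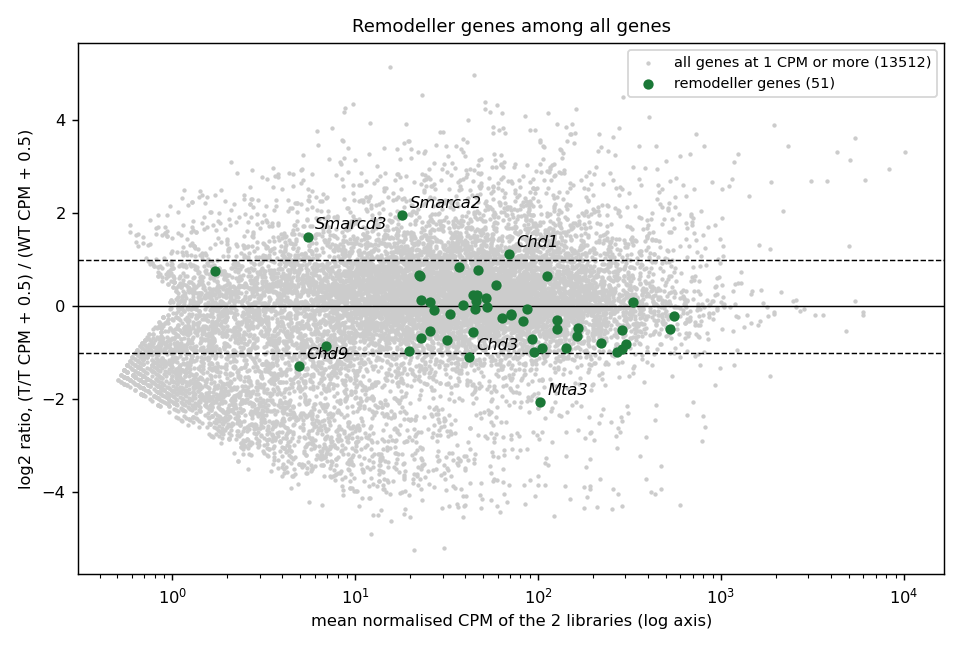
Log2 ratio of Fbxl10 T/T over WT (y axis, with 0.5 CPM added to both) against the mean CPM of both libraries (x axis, log scale) for all 13512 genes at 1 CPM or more (grey) and the 51 remodeller genes (green), with the 2-fold limits dashed. The remodeller genes lie mostly between the limits, and the 6 outside them are named.

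The pair of catalytic ATPase genes of the BAF complexes had the largest difference among the BAF paralogue pairs. Its counting interval lay within that of Smarcd1 and Smarcd3, so the order of these pairs is not settled. Smarca4, which encodes BRG1, the main ATPase of ES cell BAF, was at 236 CPM in Fbxl10 T/T and 336 CPM in WT. Smarca2, which encodes the alternative ATPase BRM, was at 29.1 CPM in Fbxl10 T/T and 7.12 CPM in WT. Smarca4 was thus 1.43-fold lower (interval 1.38 to 1.48) and Smarca2 4.09-fold higher (3.46 to 4.86). The authors' deposited table gives Smarca2 a log2 ratio of -2.03 for WT over T/T. In the deposited mm9 coordinates Smarca2 (ENSMUSG00000024921) spans chr19:26679650-26852811 and Smarca4 (ENSMUSG00000032187) chr9:21420613-21507810. Per kilobase of the longest coding transcript in GENCODE M21, Smarca2 made up 11.7% of the RNA of the pair in Fbxl10 T/T (interval 10.9 to 12.6%) and 2.23% in WT (1.91 to 2.58%). With the union of all annotated exons as the length these shares were 5.30% and 0.95%, so the shares depend on the length used. Smarca4 remained the more abundant ATPase in both libraries under both lengths.

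The difference between the log2 ratios of paralogues does not depend on library scaling or on gene length, and it was computed from reads with no pseudocount. Over the 6 pairs of ES cell BAF paralogues examined, which share the Smarcd genes, the gene named first was relatively lower in Fbxl10 T/T in all 6, with counting intervals that excluded 0. Smarca4 minus Smarca2 was -2.54 (interval -2.80 to -2.30). Smarcd1 minus Smarcd3 was -2.45 (-2.89 to -2.03), and Smarcd2 minus Smarcd3 was -1.99 (-2.43 to -1.56). Both rest on Smarcd3, which had 63 reads in WT. It shares 48.2% of its exon length with genes on the opposite strand, so both differences are uncertain beyond their intervals. Smaller differences separated Smarcc1 from Smarcc2, at -0.76 (-0.90 to -0.62), and Arid1a from Arid1b, at -0.75 (-0.88 to -0.62). The smallest was that of Smarcd1 minus Smarcd2, at -0.46 (-0.57 to -0.36). In each pair the first gene, other than Smarcd2, is the one named above as a part of ES cell BAF. A further pair of BAF genes, Dpf2 and Dpf1, differed in the opposite direction and is given below.

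**Figure D2:**
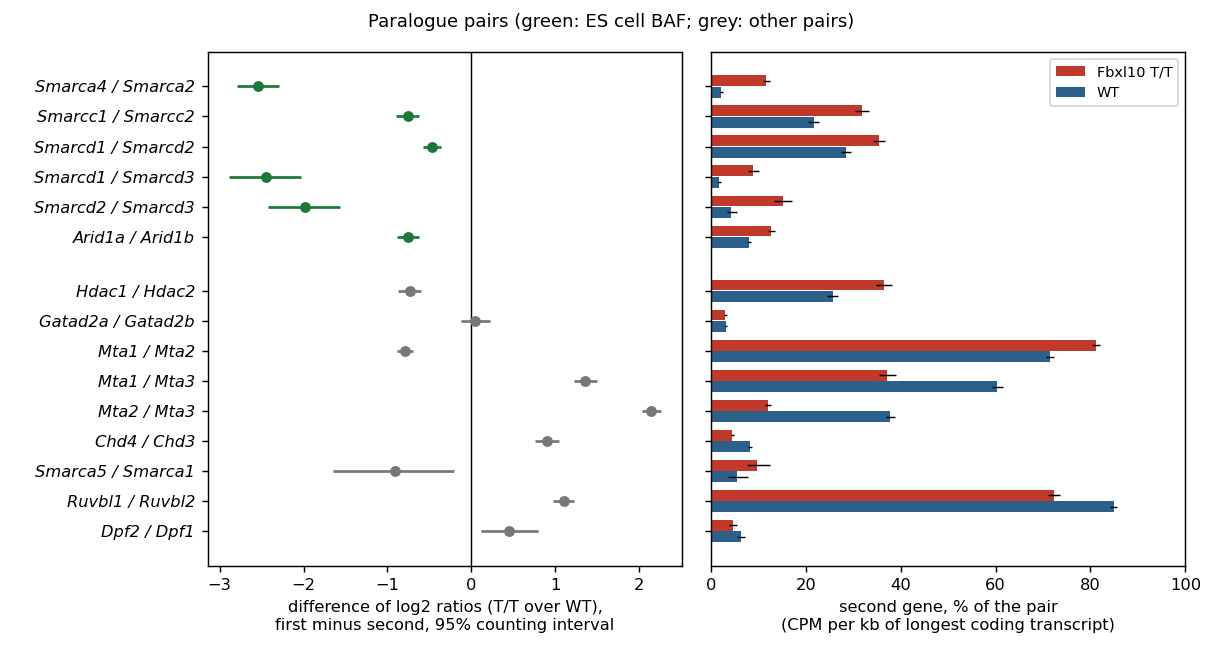
Left, difference between the log2 ratios (Fbxl10 T/T over WT) of 2 paralogues, first minus second, with 95% counting intervals, for the 6 ES cell BAF pairs (green) and 9 other pairs (grey). Right, the second gene as a percentage of its pair in Fbxl10 T/T (red) and WT (blue) from CPM per kilobase of the longest coding transcript, with counting intervals. In all 6 green pairs the second gene takes a larger share in Fbxl10 T/T. The pairs with Smarcd3 carry the limit given for that gene in the text.

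The start sites of the ATPase pair and of the Smarcd pair with the larger difference are shown, because these pairs differed most and the protein encoded by the targeted gene binds unmethylated CG dinucleotides. Each line gives the 250 bases before the annotated start from RefSeq (build GRCm38.p6), 5′ to 3′ on the gene's strand, with every CG in capitals.
Smarca4 (chr9:21615919-21616168, plus strand, 25 CG): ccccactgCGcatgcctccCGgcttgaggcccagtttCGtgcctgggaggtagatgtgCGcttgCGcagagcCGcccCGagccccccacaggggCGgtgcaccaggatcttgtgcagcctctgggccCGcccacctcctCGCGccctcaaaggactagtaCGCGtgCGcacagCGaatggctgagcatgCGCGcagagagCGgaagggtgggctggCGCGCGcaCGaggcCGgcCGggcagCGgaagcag
Smarca2 (chr19:26604910-26605159, plus strand, 28 CG): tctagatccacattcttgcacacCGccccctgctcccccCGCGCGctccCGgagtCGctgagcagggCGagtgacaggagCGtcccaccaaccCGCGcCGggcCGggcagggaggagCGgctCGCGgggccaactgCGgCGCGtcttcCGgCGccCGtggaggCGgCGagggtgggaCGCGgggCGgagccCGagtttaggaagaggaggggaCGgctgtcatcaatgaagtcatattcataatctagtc
Smarcd1 (chr15:99702037-99702286, plus strand, 29 CG): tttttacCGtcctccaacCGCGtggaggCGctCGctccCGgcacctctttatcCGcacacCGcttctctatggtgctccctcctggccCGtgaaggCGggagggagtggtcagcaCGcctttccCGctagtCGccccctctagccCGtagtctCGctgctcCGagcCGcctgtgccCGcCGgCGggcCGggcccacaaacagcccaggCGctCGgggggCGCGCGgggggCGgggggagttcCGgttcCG
Smarcd3 (chr5:24602003-24602252, minus strand, 38 CG): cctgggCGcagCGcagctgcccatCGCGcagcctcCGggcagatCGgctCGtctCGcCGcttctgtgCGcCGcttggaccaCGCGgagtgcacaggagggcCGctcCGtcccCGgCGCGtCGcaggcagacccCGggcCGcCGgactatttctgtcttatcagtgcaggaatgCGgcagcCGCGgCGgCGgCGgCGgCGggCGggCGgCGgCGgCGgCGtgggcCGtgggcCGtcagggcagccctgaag
All 4 windows held many CG, in the genes that were higher as in those that were lower. A CG reads the same on both strands, so 1 strand was searched. Windows were found for 42 of the 52 members, 49 windows in all, with a median of 21 CG and a range of 1 to 51. The 12961 windows of the genes in the deposited table had a median of 16 CG, and 92.1% of all 32851 RefSeq windows held at least 1. No measurement of methylation or of binding at these windows was analysed here, so the letters are a description only.

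Among the core subunits, Smarcd1, which encodes BAF60A, was at 161 CPM in Fbxl10 T/T and 279 CPM in WT. Its paralogue Smarcd2 was at 73.7 CPM in Fbxl10 T/T and 92.3 CPM in WT. Smarcd3, which encodes BAF60C, known for its part in heart and muscle, was at 8.34 CPM in Fbxl10 T/T and 2.64 CPM in WT, from 206 and 63 reads. Smarcd3 was thus 3.16-fold higher (interval 2.38 to 4.26), Smarcd1 1.73-fold lower and Smarcd2 1.25-fold lower. Per kilobase of coding transcript, Smarcd3 took 5.98% of the RNA of the 3 paralogues in Fbxl10 T/T and 1.27% in WT, so it stayed the least abundant. Its value is uncertain: 48.2% of the annotated exon length of Smarcd3 is shared with genes on the opposite strand, chiefly Chpf2, and the strand setting of the authors' counting is not given in the sources used here. Chpf2 was itself 2.66-fold higher, at 66.1 CPM in Fbxl10 T/T and 24.9 CPM in WT, and the deposited intervals of the 2 genes overlap by 1771 bases. The part of Chpf2 reads in the value of Smarcd3 was not tested. Smarcd3 (ENSMUSG00000028949) lies at chr5:24098443-24107830 in mm9.

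The scaffold gene Smarcc1, which encodes BAF155, was at 127 CPM in Fbxl10 T/T and 200.2 CPM in WT, 1.57-fold lower (interval 1.5 to 1.64). Smarcc2, which encodes BAF170, was at 47.1 CPM in Fbxl10 T/T and 43.8 CPM in WT, a ratio whose interval included 1. Smarcc2 therefore made up 31.9% of the pair per kilobase in Fbxl10 T/T and 21.7% in WT. Smarcb1, the core subunit lost in rhabdoid tumours in humans, was 1.88-fold lower, at 98.5 CPM in Fbxl10 T/T and 185 CPM in WT. The actin-related subunit gene Actl6a was at 105 CPM in Fbxl10 T/T and 148 CPM in WT, and the HMG-box subunit gene Smarce1 was at 39.0 and 38.6 CPM, with an annotated pseudogene that could share its reads. Of the core genes, Smarcc1, Smarcd1, Smarcb1 and Actl6a were thus lower by 1.4- to 1.88-fold and Smarcd2 by 1.25-fold. Smarcc2 and Smarce1 stayed close to WT, and Smarcd3, whose value is uncertain, was 3.16-fold higher.

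The canonical BAF complex is marked by the ARID1 and DPF subunits. Arid1a was at 219 CPM in Fbxl10 T/T and 385 CPM in WT, and its alternative Arid1b at 44.3 CPM in Fbxl10 T/T and 46.3 CPM in WT. Arid1a was 1.76-fold lower (interval 1.70 to 1.82), whereas the ratio of Arid1b had an interval that included 1. Per kilobase Arid1b was 12.7% of the pair in Fbxl10 T/T and 7.99% in WT. Dpf2, which encodes the widely expressed PHD-finger subunit, was 1.39-fold lower, at 139 CPM in Fbxl10 T/T and 193 CPM in WT. Dpf1, its neural paralogue, was at 4.78 CPM in Fbxl10 T/T and 9.13 CPM in WT.

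Genes of the PBAF and non-canonical complexes lay on both sides of WT. The PBAF genes Arid2 (52.2 CPM in Fbxl10 T/T and 53.2 CPM in WT) and Phf10 (67.3 and 75.4 CPM) were at most 1.12-fold from WT. Brd7, a bromodomain subunit of PBAF, was at 50.3 CPM in Fbxl10 T/T and 42.8 CPM in WT, a direction that turned with a common upper quartile. Pbrm1, whose protein carries the polybromo domain, was 1.61-fold higher, at 27.6 CPM in Fbxl10 T/T and 17.1 CPM in WT. Brd9, the bromodomain subunit that defines non-canonical BAF, was 1.71-fold higher (interval 1.57 to 1.86), at 59.1 CPM in Fbxl10 T/T and 34.5 CPM in WT. Ss18, which is fused in human synovial sarcoma and belongs to canonical and non-canonical BAF, was 1.89-fold lower at 72.3 CPM in Fbxl10 T/T and 136 CPM in WT. The accessory genes Bcl7b (67.9 and 49.2 CPM) and Bcl7c (23.9 and 21.9 CPM) were at or above WT, and Bcl7c turned below it after rescaling. Their paralogue Bcl7a, which is not among the members, was 1.73-fold lower (interval 1.49 to 2.00), at 11.9 CPM in Fbxl10 T/T and 20.5 CPM in WT. Across the 22 BAF genes measured 2 were at least 2-fold higher and none 2-fold lower, beside 14.8% and 20.6% of all genes, with a median log2 ratio of -0.11. Smarcb1 and Ss18 counted as 2-fold lower with a common median, and Arid1a, Smarcd1 and Dpf1 joined them with a common upper quartile; the median log2 ratio of the BAF genes was then -0.24 and -0.35.

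**Figure D3:**
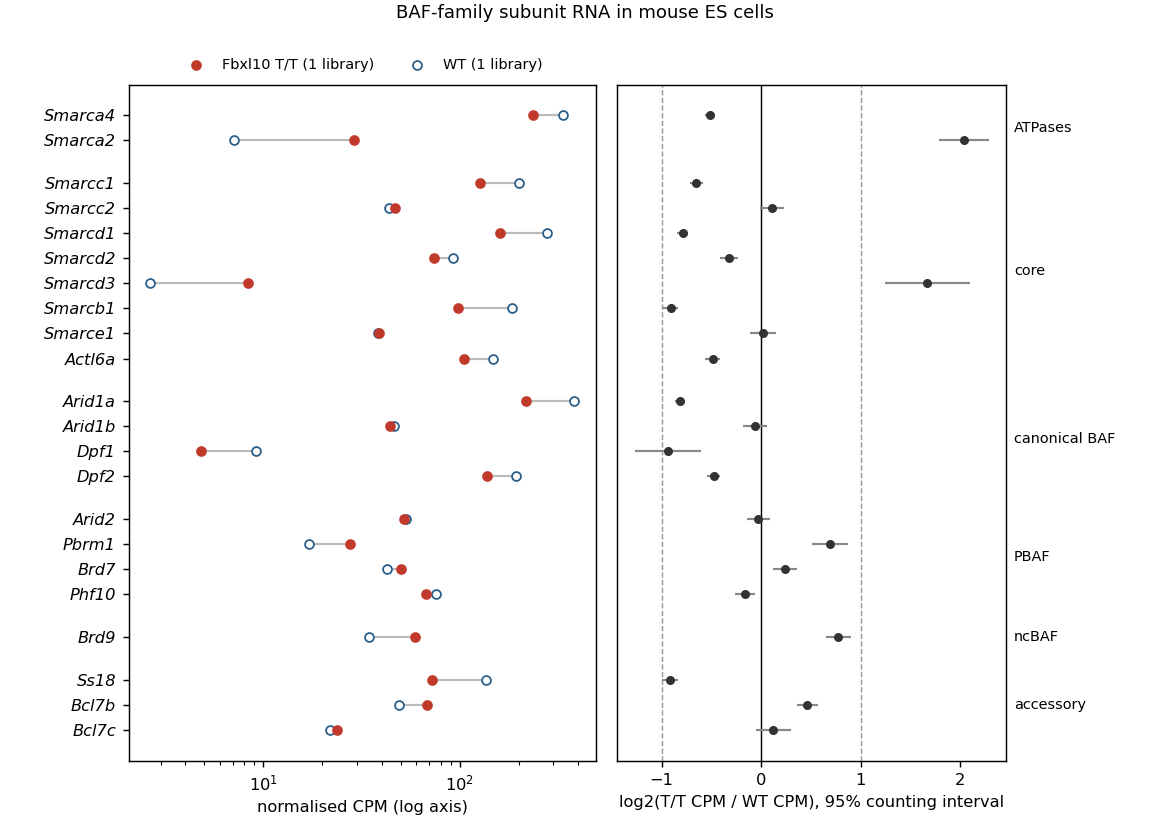
Left, CPM (log axis) of each BAF-family gene in the Fbxl10 T/T library (filled red) and the WT library (open blue), grouped by role. Right, the log2 ratio with its 95% counting interval and dashed lines at 2-fold; Smarca2 and Smarcd3 lie to the right of the upper line, and Smarcb1 and Ss18 just inside the lower one.

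In NuRD, whose ATPase CHD4 or CHD3 is joined to the deacetylases HDAC1 and HDAC2, 8 of 9 genes had ratios below WT, as did 49.1% of all genes. Mta3 and Chd3 were at least 2-fold lower, beside 20.6% of all genes, and the median log2 ratio of the 9 was -0.54. These 9 are not all of NuRD. Of other subunit genes, Mbd2 was 1.69-fold and Rbbp7 1.55-fold higher, and Mbd3 and Rbbp4 had log2 ratios of -0.06 and -0.20. Cdk2ap1 and Chd5 were lower, as given below. Mta3, a scaffold subunit gene, was at 39.5 CPM in Fbxl10 T/T and 166 CPM in WT. It was 4.21-fold lower (interval 3.92 to 4.52), the largest difference among the 51 genes, and no other annotated gene shares its exons. The authors' deposited table gives Mta3 a log2 ratio of 2.07 for WT over T/T. The gene (ENSMUSG00000055817) lies at chr17:84105503-84223055 in mm9. Its paralogues differed from it: Mta2 was at 337 CPM in Fbxl10 T/T and 320 CPM in WT, a direction that turned after either rescaling, and Mta1 was 1.64-fold lower at 70.4 CPM in Fbxl10 T/T and 115 CPM in WT. Mta2 minus Mta3 was 2.15 on the log2 scale (interval 2.04 to 2.26) and Mta1 minus Mta3 was 1.36 (1.23 to 1.497). Of the RNA of the 3 MTA genes per kilobase of the longest coding transcript, Mta3 was 10.03% in Fbxl10 T/T and 30.3% in WT, while Mta2 was 73.1% in Fbxl10 T/T and 49.8% in WT. Such shares depend on the length used. Beside Mta1 alone, Mta3 was 37.2% in Fbxl10 T/T and 60.4% in WT by that length. With exon unions these were 24.7% and 45.7%, so which was more abundant in WT changed.

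The NuRD ATPases were unequal in level and in ratio. Chd4 was the most abundant per kilobase of the 18 SNF2-family ATPase genes in both libraries, at 512 CPM in Fbxl10 T/T and 590 CPM in WT. Chd3 was 2.16-fold lower (interval 1.97 to 2.37), at 26.5 CPM in Fbxl10 T/T and 57.2 CPM in WT, and lies at chr11:69156775-69182978 in mm9. Chd4 minus Chd3 was 0.91 on the log2 scale (0.77 to 1.05), so here the scarcer paralogue was the lower one. Hdac1 was at 63.5 CPM in Fbxl10 T/T and 126 CPM in WT, and Hdac2 at 58.0 CPM in Fbxl10 T/T and 69.5 CPM in WT. Hdac1 was 1.99-fold lower (interval 1.87 to 2.11), just inside the 2-fold limit, and counted as 2-fold lower under either rescaling. Hdac1 minus Hdac2 was -0.73 (-0.87 to -0.60). Gatad2a and Gatad2b encode the subunits that bridge the ATPase to the deacetylase module. Gatad2a was at 438 CPM in Fbxl10 T/T and 620 CPM in WT, and Gatad2b at 20.8 CPM in Fbxl10 T/T and 30.5 CPM in WT. Gatad2a minus Gatad2b was 0.05 (-0.12 to 0.22), an interval that included 0.

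The CHD proteins outside NuRD are single-gene remodellers with tandem chromodomains. Chd1, which maintains open chromatin in mouse ES cells, was at 95.3 CPM in Fbxl10 T/T and 43.6 CPM in WT. It was 2.18-fold higher (interval 2.03 to 2.35) and lies at chr17:15842254-15907328 in mm9. Chd6 was 1.81-fold higher, at 47.3 CPM in Fbxl10 T/T and 26.1 CPM in WT, and Chd2 was 1.48-fold lower, at 35.2 CPM in Fbxl10 T/T and 52.3 CPM in WT. Chd9 was 2.74-fold lower (interval 2.05 to 3.70) from 65 reads in Fbxl10 T/T and 172 in WT, at 2.63 and 7.20 CPM. It lies at chr8:93352736-93578407 in mm9. Chd7, mutated in human CHARGE syndrome, was at 31.2 CPM in Fbxl10 T/T and 35.0 CPM in WT, and Chd8 at 66.1 and 75.7 CPM. The 6 genes had no common direction, and their median log2 ratio was -0.18. By the 2-fold rule 1 was higher and 1 lower as deposited, beside 14.8% and 20.6% of all genes. Chd1 did not count as 2-fold higher under either rescaling.

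No ISWI gene passed 2-fold as deposited, beside 35.3% of all genes, although Baz2a counted as 2-fold lower under either rescaling. The median log2 ratio of the 6 genes was 0.37. That median was 0.09 with a minimum of 5 CPM, which removes Smarca1, and 0.14 with a common upper quartile. The ATPase gene Smarca5, which encodes SNF2H, was at 26.5 CPM in Fbxl10 T/T and 24.8 CPM in WT, and also has an annotated pseudogene. Its paralogue Smarca1, known from neurons, was scarce, at 2.27 CPM in Fbxl10 T/T and 1.13 CPM in WT from 56 and 27 reads. The ratio of Smarca1 was 2.01-fold without a pseudocount (interval 1.25 to 3.30) and 0.76 on the log2(CPM + 0.5) scale, so it was not counted as 2-fold. Baz1a and Baz1b encode partners of SMARCA5 in the ACF and WICH complexes. Baz1a was 1.58-fold higher, at 27.6 CPM in Fbxl10 T/T and 17.5 CPM in WT, and Baz1b 1.57-fold higher, at 137 CPM in Fbxl10 T/T and 87.3 CPM in WT. Baz2a, whose protein directs SMARCA5 to silence ribosomal RNA genes, went the other way: it was 1.98-fold lower (interval 1.91 to 2.06), at 181 CPM in Fbxl10 T/T and 360.0 CPM in WT. Bptf, the large subunit of NURF, was at 85.4 CPM in Fbxl10 T/T and 89.3 CPM in WT.

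In the INO80-related group none of 5 genes passed 2-fold as deposited, beside 35.3% of all genes, and the median log2 ratio was -0.29. Under either rescaling Ruvbl2 counted as 2-fold lower. Ruvbl1 and Ruvbl2 encode the partner AAA+ ATPases of these complexes, which assemble as mixed rings. Ruvbl1 was at 55.2 CPM in Fbxl10 T/T and 48.5 CPM in WT, and Ruvbl2 at 199 CPM in Fbxl10 T/T and 377 CPM in WT. Ruvbl2 was 1.89-fold lower (interval 1.83 to 1.96), and Ruvbl1 minus Ruvbl2 was 1.10 on the log2 scale (0.98 to 1.23). Ruvbl2 shares 15.4% of its exon length with genes on the opposite strand, among them Gys1, which was at 65.1 CPM in Fbxl10 T/T and 221 CPM in WT. The part of shared reads was not tested. Ep400, an ATPase of the TIP60 complex, was at 114 CPM in Fbxl10 T/T and 140 CPM in WT, and Ino80 at 47.6 and 40.6 CPM. Srcap, which deposits a variant of histone H2A, was 1.62-fold lower at 17.4 CPM in Fbxl10 T/T and 28.3 CPM in WT, and 65.01% of its exon length is shared with annotated genes that are not in the table.

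The 3 further ATPases are tied to heterochromatin and to DNA methylation. None passed 2-fold as deposited, beside 35.3% of all genes, although Atrx counted as 2-fold lower under either rescaling. Atrx, which with DAXX places a histone H3 variant at repeats, was 1.98-fold lower (interval 1.73 to 2.27), at 13.2 CPM in Fbxl10 T/T and 26.2 CPM in WT. Hells, needed for DNA methylation of repeats in mouse, was 1.67-fold lower (1.51 to 1.86), at 23.9 CPM in Fbxl10 T/T and 39.9 CPM in WT. Smarcad1 was at 26.0 CPM in Fbxl10 T/T and 27.7 CPM in WT, a ratio whose interval included 1.

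**Figure D4:**
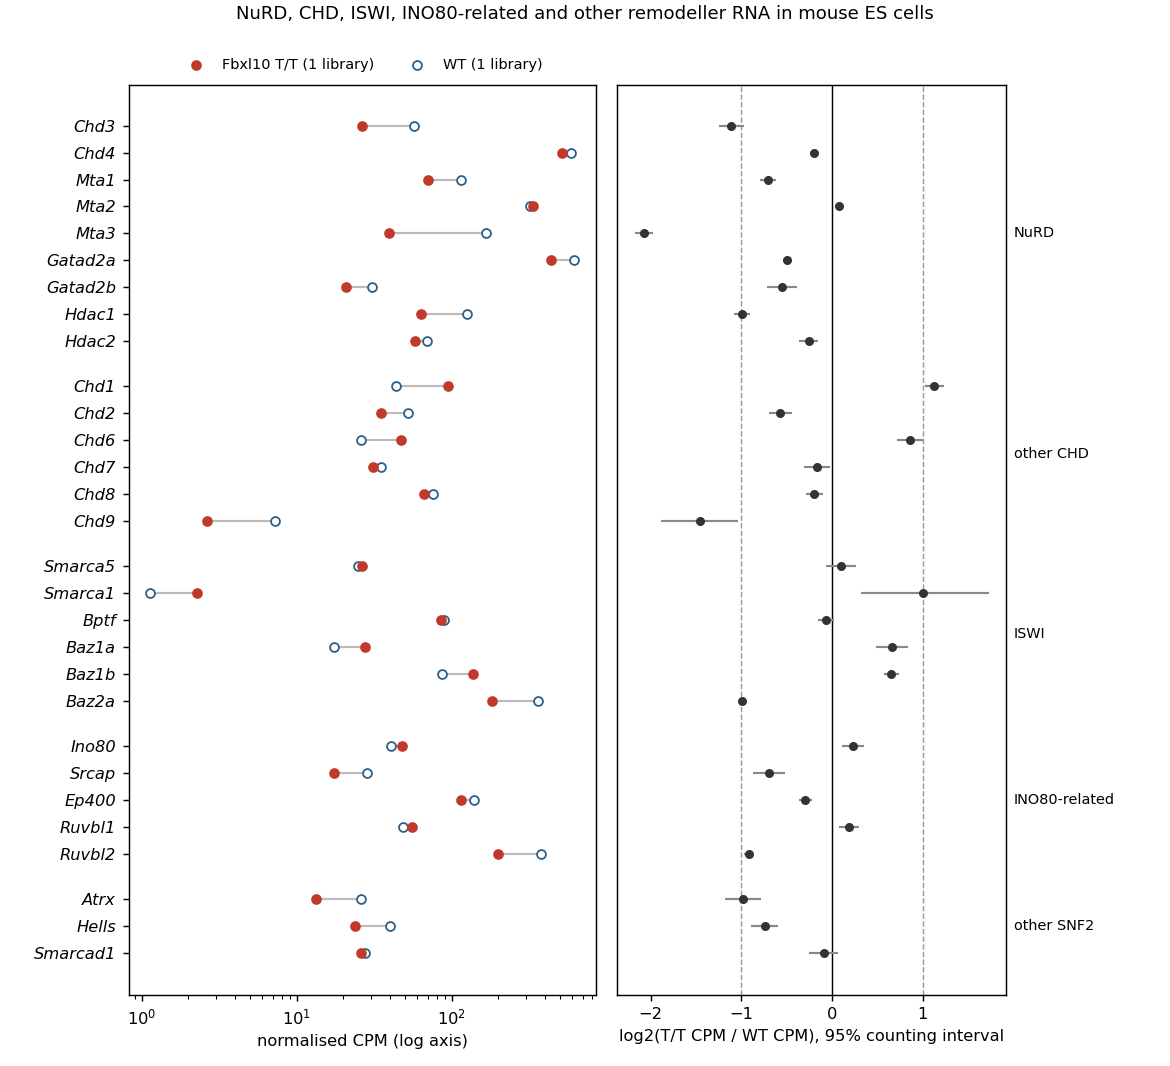
Left, CPM (log axis) of the NuRD, other CHD, ISWI, INO80-related and other remodeller genes in the Fbxl10 T/T library (filled red) and the WT library (open blue). Right, log2 ratios with 95% counting intervals and dashed lines at 2-fold; Mta3 lies farthest to the left and Chd1 beyond the upper line.

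The 18 ATPases of the SNF2 family can be ordered by CPM per kilobase of the longest coding transcript. Chd4 (76.4 in Fbxl10 T/T and 88.1 in WT) and Smarca4 (37.0 and 52.8) held ranks 1 and 2 in both libraries. Smarca2 stood at rank 8 in Fbxl10 T/T, at 4.92, and rank 16 in WT, at 1.202. Chd1 stood at rank 3 in Fbxl10 T/T, at 12.0, and rank 9 in WT, at 5.51. Chd3 stood at rank 13 in Fbxl10 T/T, at 3.65, and rank 5 in WT, at 7.88. The scarcest were Chd9 (0.22 in Fbxl10 T/T and 0.60 in WT) and Smarca1 (0.47 and 0.24). Ranks in the middle lie close together and depend on the length: with the union of exons Smarca2 was at rank 13 in Fbxl10 T/T and 16 in WT.

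Other subunit and partner genes of the same complexes, together with further SNF2-family genes such as Zranb3, were counted by the same rule. The list held 51 genes, of which 49 were measured. None was at least 2-fold higher and 6 were lower, beside 14.8% and 20.6% of all genes, with a median log2 ratio of -0.09. The lower genes numbered 8 with a pseudocount of 0.1 CPM and 9 under either rescaling. Zranb3 (2.14-fold lower) and Cdk2ap1 (2.02-fold lower) pass 2-fold without a pseudocount but not with 0.5 CPM, and are not among the 6. Chd5, a CHD ATPase known from neurons and testis, was 10.9-fold lower (interval 7.94 to 15.3), at 1.70 CPM in Fbxl10 T/T and 18.5 CPM in WT. Bicral, which encodes an alternative subunit of non-canonical BAF and is listed under an older symbol, was 8.82-fold lower (7.95 to 9.80), at 16.2 CPM in Fbxl10 T/T and 142 CPM in WT. Bicral shares 11.3% of its exon length with another annotated gene, so its value may include or lose reads. Its paralogue Bicra was 1.33-fold lower (1.15 to 1.53), at 13.9 CPM in Fbxl10 T/T and 18.4 CPM in WT. Thus 1 gene of non-canonical BAF, Brd9, was above WT, while Bicra was below it and Bicral far below it. Daxx, which encodes the partner of ATRX, was 2.16-fold lower at 89.7 CPM in Fbxl10 T/T and 194 CPM in WT. Vps72, a subunit gene of the SRCAP complex, was 2.06-fold lower at 41.9 CPM in Fbxl10 T/T and 86.1 CPM in WT. Ss18l1, the paralogue of Ss18 known from neuronal BAF, was 2.28-fold lower at 2.998 CPM in Fbxl10 T/T and 6.83 CPM in WT, and Baz2b, an ISWI partner, was 2.91-fold lower at 4.21 CPM in Fbxl10 T/T and 12.3 CPM in WT.

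Beyond the 6 ES cell BAF pairs, 9 further pairs were compared, and 8 had counting intervals that excluded 0. Smarca5 minus Smarca1 was -0.91 (-1.65 to -0.20), and Mta1 minus Mta2 was -0.79 (-0.89 to -0.69). Dpf2 minus Dpf1, also a pair of BAF genes, was 0.46 (0.12 to 0.80), opposite in sign to the 6 ES cell BAF pairs. The first gene was relatively lower in 3 of the 9 pairs. Rescaling turned the sign of 5 members with a common median (Bcl7c, Mta2, Smarca5, Smarcc2 and Smarce1). With a common upper quartile it turned 8 (these and Brd7, Ino80 and Ruvbl1), so the direction of those genes depends on the scaling.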

How the data were processed

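Polyadenylated RNA of 1 Fbxl10 T/T and 1 WT library was analysed. The submitters' processing notes name the build mm9, edgeR, HTSeq 0.5.3p9 and TopHat 1.4.1; the sources used here do not give what each was used for, the gene models or strandedness. The deposited signal per gene is normalised CPM: all values (100%) were whole multiples of 1 step per library (tolerance 0.01 reads), which gave back the read counts, 1 read being worth 0.0405 CPM in Fbxl10 T/T and 0.0419 CPM in WT. The column sums were 1098136 and 887645. The authors' deposited log2 ratios run WT over T/T; ratios recomputed here for the 9311 genes that reached 5 CPM in each library differed from them by 0.0028 or less. The deposited log2 mean CPM was not used. Of 24706 rows 11086 were repeats and were used once, and 13443 of 13620 identifiers matched a GENCODE M21 symbol.

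Log2 ratios used a pseudocount of 0.5 CPM and a minimum of 1 CPM in at least 1 library. Folds are ratios of CPM without it, with exact binomial (Clopper-Pearson) intervals; paralogue differences have exact conditional intervals from reads. Since PCR duplicates are not separate molecules, these intervals cover counting error only. With 1 library per genotype there was no test; an added exact two-sided binomial comparison of the libraries, Benjamini-Hochberg adjusted, put 5792 genes above WT and 5580 below it with adjusted p up to 0.05, and compares libraries, not genotypes. Transcript lengths are those of GENCODE M21 (GRCm38); shared exons were looked for there. The 51 listed members are described. Companion genes were named at 2-fold on the log2(CPM + 0.5) scale, apart from Zranb3, Cdk2ap1, Mbd2, Mbd3, Rbbp4, Rbbp7, Bcl7a and Bicra. The members, lists and rules were chosen with earlier results of these data known. Protein sequences were planned and are not used here. Alternatives are given below. Steps were tested on simulated reads. Tools were Python 3.11.15, scipy 1.17.1, pandas 2.3.3, numpy 2.4.6 and matplotlib 3.10.9.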

Additional observations from a re-analysis of the deposited data

How the results depend on the processing

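No paired analysis was possible because each genotype had a single library, so none could be left out either. The count of lower members moved to 9 with a common median and 12 with a common upper quartile. With a 1.5-fold threshold 9 members were higher and 16 lower, with a 4-fold threshold 0 and 1, and with a mean of at least 20 CPM, which removes Smarca2 and Smarcd3, 1 was higher. The median of Atrx, Hells and Smarcad1 moved to -0.96 with a common upper quartile. Pseudocounts of 0.1 and 1 CPM, no minimum, a minimum of 5 CPM and the added binomial comparison left 3 higher and 3 lower members. The 6 ES cell BAF differences stayed within their counting intervals under pseudocounts of 0.1 and 1 CPM; scaling cannot change them. The per-length shares within these pairs all moved when exon unions replaced the longest coding transcripts (Smarca2 to 5.30% in Fbxl10 T/T and 0.95% in WT). Variation between cultures or clones could not be measured. The members Smarcd1, Smarcd3, Actl6a, Chd2, Ruvbl2 and Srcap each share over 10% of their exon length with other genes, so their values may include or lose reads. For Actl6a, the deposited intervals of the gene and of Mrpl47, which shares its annotated exons, did not overlap.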
